A study of Mus musculus with 9 samples.

Results

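The genes described here are 30 mouse genes of cholesterol and fatty acid synthesis, chosen by name as a pathway list and found by matching their symbols to the gene identifiers of the deposited count files. All 30 were among the 22173 genes of the files, and all 30 passed the filter on low counts that left 12094 genes for testing. They fall into a sterol branch of 16 genes, a fatty acid branch of 10 genes and 4 regulators. The cells were wild type primary neutrophils derived from mouse bone marrow, embedded for 2 days in hydrogels of gelatin methacryloyl (GelMA) under medium with 10% fetal bovine serum. The groups were low (1.5 kPa, the study's control), middle (2.6 kPa) and high (5.7 kPa) stiffness, with 3 RNA-seq libraries each, numbered 1 to 3. The labels give no age or sex of the mice, no purity of the cells, and no statement that the replicates came from separate animals or cultures, so the p-values reflect how these libraries spread, possibly for technical reasons. The study's title asks how stiffness affects the polarization of the neutrophils.

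Cells make cholesterol from acetyl-CoA through mevalonate, squalene and lanosterol, and make fatty acids from the same acetyl-CoA by chain building, elongation and desaturation. The transcription factors SREBP2 (Srebf2) and SREBP1 (Srebf1) drive the genes of both branches. Scap carries the SREBP precursors out of the endoplasmic reticulum when sterols are scarce, Insig1 holds them there when sterols are plentiful, and Insig1 is itself an SREBP target. Neutrophils live briefly, and both pathways are better known in liver and in proliferating cells.

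Libraries held 13172879 to 19486546 counts, of which the 30 genes took 0.108% to 0.194%. Replicate 1 of every gel stood apart from replicates 2 and 3 on the first principal component, which held 68.1% of the variance. All 16 neutrophil markers on the list used to check the label were detected, and no analysed marker of another cell type was at 0 in every library. The neutrophil markers summed to 3689.7 to 5047 CPM (TMM-normalised counts-per-million) in replicate 1 libraries, against 17169 to 25318 CPM in replicates 2 and 3. The 15 macrophage markers summed to 10435 to 11402 CPM in replicate 1 libraries, against 6011 to 9992 CPM in replicates 2 and 3. These markers did not move together. By mean in replicate 1 against replicates 2 and 3, Gpnmb had 4957 against 2204 CPM and Lgals3 2115 against 694 CPM. Csf1r had 701 against 1331 CPM and Apoe 151 against 877 CPM. The libraries therefore also held RNA of genes typical of macrophages, and in bulk RNA fewer cells of a type and less RNA per cell cannot be told apart.

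On the per-length scale of TPM (transcripts-per-million, from counts and gene sizes), the most abundant of the 30 genes over all 9 libraries were the regulator Srebf2 with a mean level of 97.2 TPM, the lanosterol-demethylation enzyme Msmo1 with 86.9 TPM and Insig1 with 83.2 TPM. Scd2, a stearoyl-CoA desaturase that makes monounsaturated fatty acids, followed at a mean of 81.6 TPM, and its levels ran from 8.66 to 139.9 TPM between libraries. The lowest were the lanosterol synthase Lss at 5.29 TPM, the acetyl-CoA carboxylase Acaca at 4.17 TPM and the elongase Elovl6 at 2.32 TPM. No member was at 0 in any library.

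In high against low gels, Insig1, Srebf1 and Srebf2 had higher levels in high gels, together with a few enzymes, while the fourth regulator, Scap, was not called. A fit over the 3 groups without the replicate number called 11 of the 12094 genes (0.091%; edgeR quasi-likelihood test, Benjamini-Hochberg adjusted p under 0.05) and none of the 30 members. Libraries of the same replicate number deviated together from their group means, mostly as replicate 1 set apart from replicates 2 and 3. The fit with the number as a block called 1869 genes (15.5%). With this block 6 of the 30 members were called higher in high gels and 0 lower, against 6.72% of all genes called higher and 8.73% called lower. The 6 were Srebf1, Insig1, Srebf2, Cyp51, Fads2 and Elovl5, so 3 of 4 regulators, 1 of 16 sterol enzymes and 2 of 10 fatty acid enzymes were called higher. The median log2 difference with the block was 0.20 over the 30 members and -0.0026 over all tested genes, and 22 of the 30 members had a positive value.

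Insig1 had 82.1, 63.3 and 60.4 CPM in low gels, 89.9, 75.5 and 78.2 CPM in middle gels and 101.5, 123 and 109 CPM in high gels, for replicates 1, 2 and 3. Every high library lay above every middle and every low library. The log2 difference of high over low was 0.71 ± 0.12 (SE, n = 3 per group), with an adjusted p of 0.0028 with the block and 0.23 without it. Srebf1 had 37.5, 44.1 and 43.0 CPM in low gels, 41.3, 52.8 and 53.7 CPM in middle gels and 47.7, 76.5 and 70.5 CPM in high gels. The high and low libraries did not overlap, and high replicate 1 was the lowest of the high libraries. Srebf1, whose product is best known for fatty acid genes, was higher by 0.62 ± 0.10 (adjusted p 0.0021 with the block, 0.40 without).

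Srebf2 had 144, 206 and 201 CPM in low gels, 171, 243 and 250.03 CPM in middle gels and 187, 269.7 and 258 CPM in high gels. The high and low groups overlapped because replicate 1 was the lowest library of each gel, while within each replicate number the level was highest in the high gel. Its log2 difference was 0.37 ± 0.07 (adjusted p 0.0074 with the block, 0.83 without), and within replicates 1, 2 and 3 it was 0.38, 0.39 and 0.36. Scap had 52.4, 28.2 and 32.5 CPM in low gels, 50.3, 33.7 and 33.5 CPM in middle gels and 55.3, 34.9 and 31.5 CPM in high gels. In all 3 gels replicate 1 was the highest, and Scap was not called in high against low gels (0.11 ± 0.10, adjusted p 0.47 with the block, 0.99 without).

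Insig1, Srebf1 and Srebf2 had a stepwise order, low under middle under high, within each of the 3 replicate numbers. The only other member with that order was Acly, the ATP citrate lyase that makes cytosolic acetyl-CoA for both branches. Acly had 181, 206 and 198 CPM in low gels, 197, 221 and 227 CPM in middle gels and 204, 252 and 238 CPM in high gels, but it was not called in high against low gels (0.24 ± 0.08, adjusted p 0.053 with the block). Among all tested genes, 17.7% had middle above low within all 3 replicate numbers, and 16.4% had high above middle. The share of all genes with the full stepwise order was not computed.

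**Figure D1:**
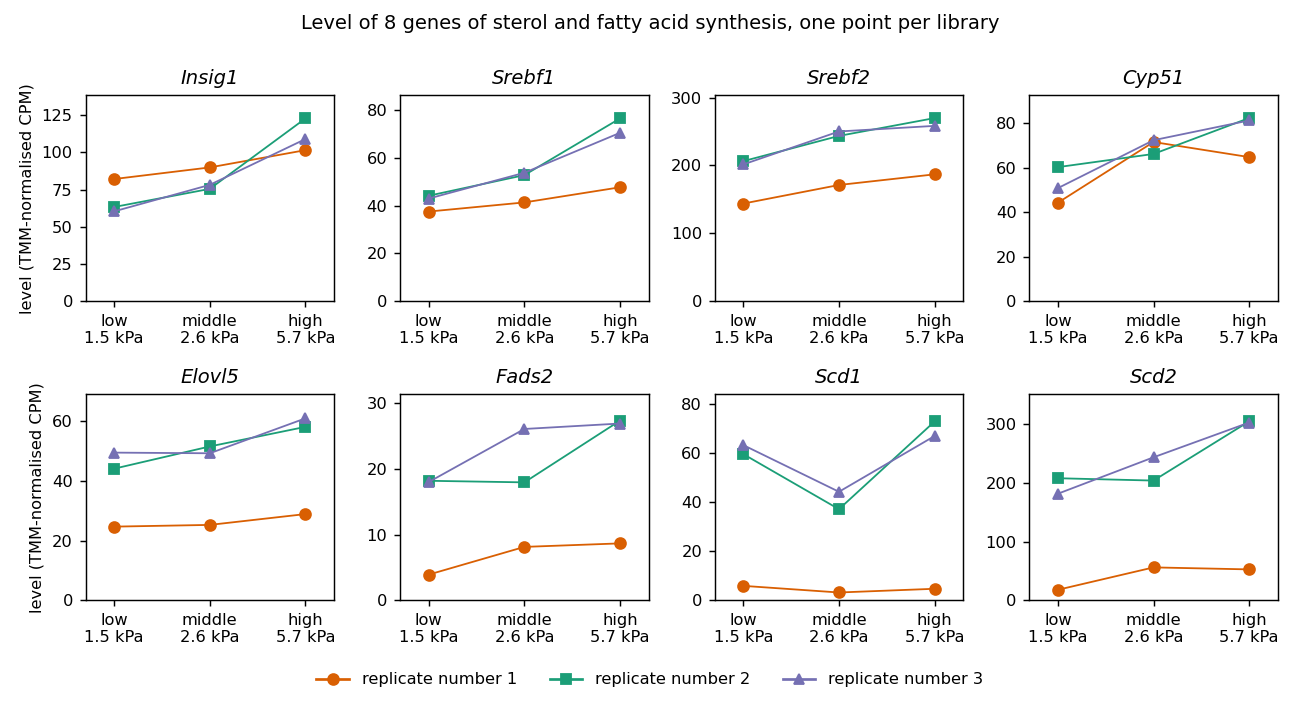
TMM-normalised CPM (vertical axes, linear, from 0) of 8 genes in each of the 9 libraries, against gel stiffness (horizontal axes, low, middle and high), with 1 point per library and lines joining libraries of the same replicate number. Insig1, Srebf1 and Srebf2 climb within every replicate number, while Scd1 and Scd2 lie far lower in replicate 1 than in replicates 2 and 3.

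In the sterol branch, Cyp51, the lanosterol demethylase, was called. Cyp51 had 44.3, 60.3 and 50.9 CPM in low gels, 71.6, 66.2 and 72.4 CPM in middle gels and 64.8, 82.4 and 81.3 CPM in high gels. All middle and all high libraries lay above all low libraries, while the high and middle groups overlapped. Its log2 difference of high over low was 0.56 ± 0.11 (adjusted p 0.0063 with the block, 0.33 without).

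The other sterol enzymes did not pass the test in high against low gels. From squalene to cholesterol (Fdft1, Sqle, Lss, Cyp51, Msmo1, Nsdhl, Hsd17b7, Dhcr7 and Sc5d), 8 of 9 genes had a positive value with the block and the median was 0.32. From acetyl-CoA to farnesyl diphosphate (Acat2, Hmgcs1, Mvk, Pmvk, Mvd, Idi1 and Fdps), 4 of 7 were positive and the median was 0.02. Hmgcs1, the HMG-CoA synthase of the mevalonate route, had a difference of -0.02 ± 0.09. Sqle, the squalene epoxidase, had 0.42 ± 0.16 (adjusted p 0.11), and Mvd, the mevalonate diphosphate decarboxylase, had -0.29 ± 0.09 (adjusted p 0.0505), the value nearest to the threshold among the members that were not called.

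Counted by the libraries alone, 7 of the 30 members had all high libraries above all low ones (Cyp51, Fdft1, Fdps, Insig1, Lss, Sqle and Srebf1) and 1 had all of them below (Mvd), against 12.7% of all tested genes in either direction. Of these 8, 6 were sterol enzymes and none was of the fatty acid branch. This count cannot compare the branches. For 9 of the 10 fatty acid genes all replicate 1 libraries lay below those of replicates 2 and 3, so high and low had to overlap. Among the 16 sterol genes this held for 5, and 1 had replicate 1 above all others. Mvd had 35.2, 40.5 and 40.2 CPM in high gels, against 45.0, 46.7 and 49.8 CPM in low gels. Fdps, the farnesyl diphosphate synthase, had 43.5, 35.6 and 31.9 CPM in high gels, against 20.8, 31.0 and 27.1 CPM in low gels. In the GENCODE vM21 annotation, another release than the files', 77.4% of the exon bases of Fdps are overlapped on the same strand by another gene model, so its counts are uncertain. Some counts of Fdft1 and Scap are uncertain too if strand was not used, since 20.9% and 18.6% of their exon bases are overlapped on the other strand, and 30.4% of the 50-base stretches of Acaca recur in other gene models.

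The start regions of the 6 called members are shown because these members moved in the same direction. They come from a RefSeq table of 300-base windows on GRCm38.p6, from 250 bases before to 50 bases after the start, which held 24 of the 30 members. Capitals mark CCAAT (or ATTGG on the other strand), a motif bound by NF-Y, a factor known to act beside SREBP, and the E-box CACGTG. The windows are chr11:60210422-60210721 (minus strand) for Srebf1, the most downstream of its 3 windows by position, while of the other two the first holds CCAAT and the second does not, chr5:28071162-28071461 (plus) for Insig1 and chr5:4104648-4104947 (minus) for Cyp51. For the other 3 they are chr15:82147019-82147318 (plus) for Srebf2, chr19:10101454-10101753 (minus) for Fads2 and chr9:77917115-77917414 (plus) for Elovl5.
Srebf1: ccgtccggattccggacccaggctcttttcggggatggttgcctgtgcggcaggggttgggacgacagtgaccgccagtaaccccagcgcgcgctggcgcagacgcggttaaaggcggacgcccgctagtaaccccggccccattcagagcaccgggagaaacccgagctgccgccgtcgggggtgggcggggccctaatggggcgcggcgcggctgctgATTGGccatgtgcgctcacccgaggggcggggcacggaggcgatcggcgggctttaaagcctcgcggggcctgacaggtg
Insig1: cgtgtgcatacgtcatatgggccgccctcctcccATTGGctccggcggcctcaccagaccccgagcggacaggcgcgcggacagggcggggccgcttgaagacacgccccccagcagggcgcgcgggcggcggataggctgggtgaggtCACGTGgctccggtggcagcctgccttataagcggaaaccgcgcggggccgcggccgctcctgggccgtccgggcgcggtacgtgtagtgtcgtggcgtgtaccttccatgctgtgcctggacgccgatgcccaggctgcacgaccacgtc
Cyp51: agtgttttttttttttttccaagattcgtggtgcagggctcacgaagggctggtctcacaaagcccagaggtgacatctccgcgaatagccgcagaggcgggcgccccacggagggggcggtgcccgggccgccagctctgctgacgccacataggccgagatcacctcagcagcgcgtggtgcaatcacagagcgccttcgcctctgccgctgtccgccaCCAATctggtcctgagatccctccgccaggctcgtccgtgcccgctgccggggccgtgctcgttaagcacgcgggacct
Srebf2: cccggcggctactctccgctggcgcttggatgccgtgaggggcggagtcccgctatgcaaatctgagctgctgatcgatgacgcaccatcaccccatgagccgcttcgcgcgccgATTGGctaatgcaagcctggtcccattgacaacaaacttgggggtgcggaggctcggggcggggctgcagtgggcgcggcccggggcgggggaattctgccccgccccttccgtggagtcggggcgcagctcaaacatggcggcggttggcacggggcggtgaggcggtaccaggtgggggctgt
Fads2: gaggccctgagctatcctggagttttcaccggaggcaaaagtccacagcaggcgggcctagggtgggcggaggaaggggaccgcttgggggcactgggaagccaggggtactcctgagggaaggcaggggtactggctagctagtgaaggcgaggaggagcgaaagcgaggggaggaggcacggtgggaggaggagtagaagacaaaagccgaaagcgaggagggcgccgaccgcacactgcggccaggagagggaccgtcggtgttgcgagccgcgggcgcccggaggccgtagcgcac
Elovl5: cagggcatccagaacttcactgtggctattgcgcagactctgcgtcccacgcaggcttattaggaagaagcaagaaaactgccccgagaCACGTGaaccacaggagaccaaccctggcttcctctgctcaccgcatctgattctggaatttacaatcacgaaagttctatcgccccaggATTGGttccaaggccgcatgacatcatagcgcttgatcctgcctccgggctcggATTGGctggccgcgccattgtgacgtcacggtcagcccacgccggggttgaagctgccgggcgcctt

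Of the 6 windows printed, 5 held CCAAT on either strand and Fads2 did not, while Insig1 and Elovl5 also held CACGTG. Of the 24 members with a window, 19 (79.2%) held CCAAT on either strand in any window, against 41.1% of the 27025 genes in the table. By branch these were 12 of 13 sterol genes, 4 of 7 fatty acid genes and 3 of 4 regulators. The motif GGGCGG, read on both strands, was in 19 of 24 members (79.2%) and in 38.2% of genes, and CACGTG in 6 of 24 members (25%) and in 8.09% of genes. The sterol element written as TCACNCCAC, read on both strands, was found only in Hmgcs1 among the 24, and in 1.44% of all genes. None of the 4 motifs contains another. All 24 members passed the filter on low counts, while the 27025 genes also include genes not tested here. Shares among the tested genes alone were not computed. A match or its absence in these windows says nothing on binding.

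In the fatty acid branch, Fads2 and Elovl5, which act in turn on polyunsaturated fatty acids as a desaturase and an elongase, rose in high against low gels. Fads2 had 3.92, 18.2 and 18.02 CPM in low gels, 8.13, 17.96 and 26.1 CPM in middle gels and 8.67, 27.4 and 26.9 CPM in high gels. Within each replicate number the high library was above the low one, while the groups overlapped because of replicate 1. Its log2 difference was 0.70 ± 0.17 (adjusted p 0.019 with the block, 0.97 without), and the call was lost without low replicate 3 or without high replicate 2.

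Elovl5 had 24.7, 44.1 and 49.5 CPM in low gels, 25.3, 51.6 and 49.3 CPM in middle gels and 28.9, 58.2 and 61.0 CPM in high gels. The groups overlapped, again through replicate 1. Its log2 difference was 0.31 ± 0.09 (adjusted p 0.034 with the block, 0.98 without), and DESeq2 with the block gave an adjusted p of 0.060. The call was also lost in 5 of the 9 fits that leave out 1 library, namely without low replicate 2, low replicate 3, middle replicate 3, high replicate 2 or high replicate 3. Srebf2 lost its call without high replicate 2, and the calls of Insig1, Srebf1 and Cyp51 held in all 9 such fits.

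The remaining fatty acid genes were not called in high against low gels with the block. The fatty acid synthase Fasn had -0.08 ± 0.12, the carboxylase Acaca 0.13 ± 0.15, and the acetyl-CoA synthetase Acss2 -0.20 ± 0.14. Scd2 had 52.6, 305 and 303 CPM in high gels, against 17.9, 208 and 182 CPM in low gels. High was above low within each replicate number, and the difference of 0.86 ± 0.29 had an adjusted p of 0.11. Fads1, the partner desaturase of Fads2, had 14.2, 24.9 and 22.4 CPM in high gels, against 12.3, 33.3 and 33.5 CPM in low gels, and went opposite ways in replicate 1 and in the others.

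**Figure D2:**
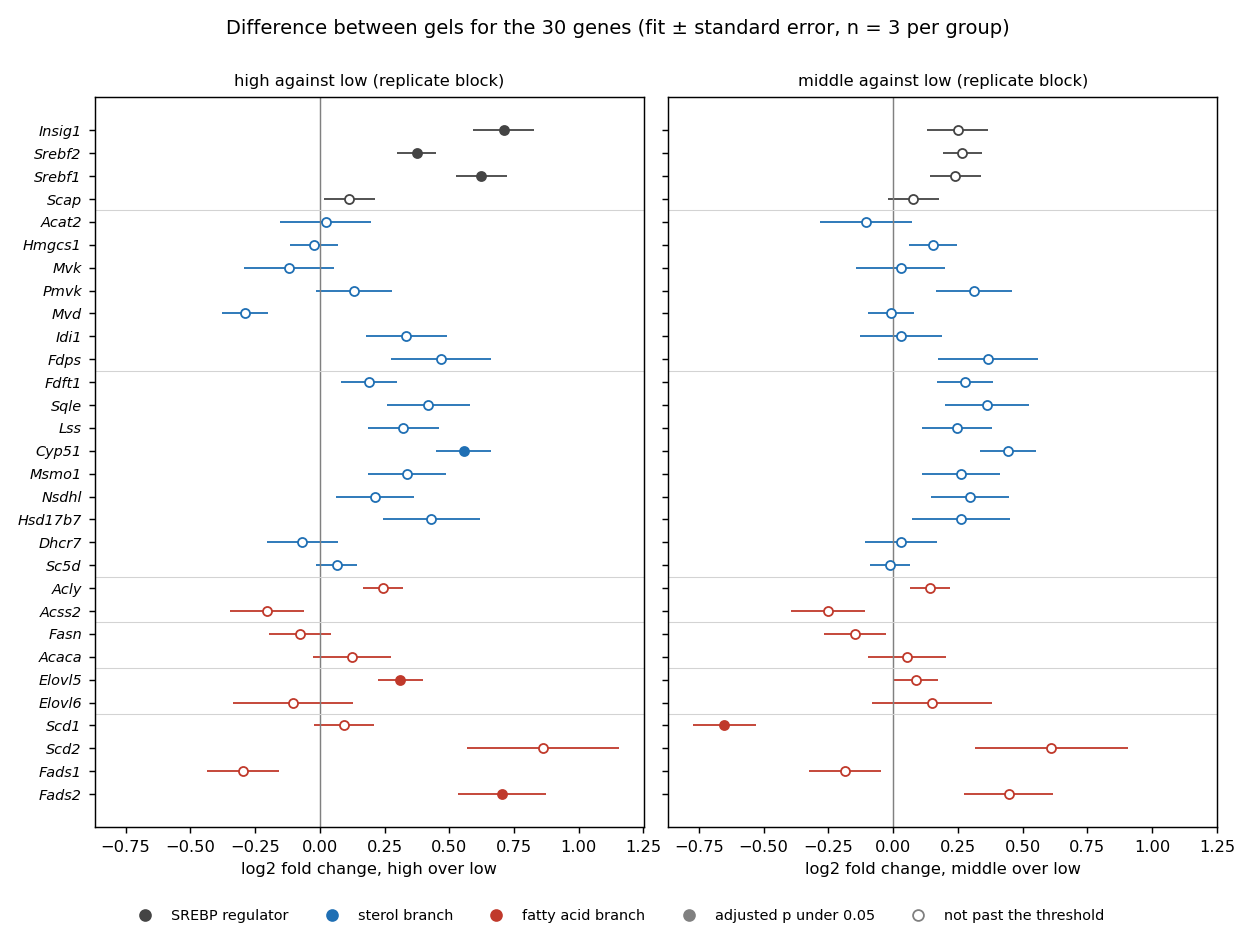
Log2 fold change (horizontal axes) of high over low gels and of middle over low gels for the 30 genes, from the fit with the replicate block, with bars of 1 standard error and filled points at adjusted p under 0.05. In high over low the 6 filled points lie between 0.31 and 0.71, and in middle over low Scd1 at -0.65 is the only filled point.

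Macrophage, neutrophil and cell cycle markers moved between high and low gels too. With the block, 3 of 15 macrophage markers were called higher in high gels and 7 lower, and 1 of 16 neutrophil markers was higher and 5 lower. Of 12 cell cycle genes 5 were lower and 0 higher. Of all genes 6.72% were called higher and 8.73% lower. For replicates 1, 2 and 3, the macrophage markers summed to 11402, 6589 and 6011 CPM in high gels. In low gels they summed to 11395, 9992 and 9554 CPM. The neutrophil markers summed to 5047, 17169 and 17774 CPM in high gels, against 3689.7, 25318 and 22348 CPM in low gels. Both sums were lower in high gels in replicates 2 and 3. In replicate 1 the macrophage sum was almost level and the neutrophil sum was higher. The part of these markers in the differences of the lipid genes was not tested.

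With replicates 2 and 3 alone, where 26.3% of genes were called, 12.2% higher and 14% lower, 10 of the 30 members were called in high against low gels, 8 higher and 2 lower. These were the same 6 genes together with Acly (0.28 ± 0.07) and Scd2 (0.64 ± 0.09, adjusted p 0.00032) on the higher side, and Fads1 (-0.50 ± 0.10, adjusted p 0.0036) and Acss2 (-0.36 ± 0.12) on the lower side. Insig1 was higher by 0.90 ± 0.08 and Srebf1 by 0.75 ± 0.08 in this subset of 2 libraries per group.

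In middle against low gels, 1 of the 30 members was called with the block, where 1.84% of genes were, and none without it, where no gene was called and 318 genes had an unadjusted p under 0.05. The called gene was Scd1, the stearoyl-CoA desaturase that introduces the double bond of oleate. Scd1 had 5.88, 59.4 and 63.1 CPM in low gels, 3.18, 37.0 and 44.1 CPM in middle gels and 4.69, 72.7 and 66.8 CPM in high gels. Within each replicate number the middle library was the lowest, and replicate 1 was far below the others in every gel. The log2 difference of middle over low was -0.65 ± 0.12 (adjusted p 0.020), 1.57-fold lower in middle gels, and the call was lost in 5 of 9 fits that leave out 1 library, those without low replicate 2 or 3 or without any 1 of the middle libraries.

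Cyp51, Fdft1 and Lss had all 3 middle libraries above all 3 low ones, as 3.57% of genes did, and no member had them all below. Cyp51 had a difference of 0.44 ± 0.11 with an adjusted p of 0.066 with the block. Insig1 had 0.25 ± 0.12, Srebf2 0.27 ± 0.07 and Srebf1 0.24 ± 0.10 in the same fit, with adjusted p of 0.36, 0.11 and 0.29. The sterol median was 0.25, the fatty acid median 0.07 and the median of all genes 0.0062. Within replicates 1, 2 and 3 the sterol median was 0.39, 0.02 and 0.08, so it was mostly a difference of replicate 1. The fatty acid median was 0.14, -0.16 and 0.06. With replicates 2 and 3 alone, where 6.42% of genes were called, Insig1 (0.31 ± 0.08) and Srebf2 (0.27 ± 0.07) were higher in middle gels and Scd1 was lower (-0.60 ± 0.10).

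In high against middle gels no member was called with the block, where 0.0165% of genes were, nor without it, where no gene was called and 179 had an unadjusted p under 0.05. Scd1 had the largest difference, 0.75 ± 0.12 (adjusted p 0.079), and DESeq2 with the block called Scd1 and Insig1, where it called 0.893% of genes. With replicates 2 and 3 alone, where 6.88% of genes were called, Scd1 (0.79 ± 0.10), Insig1 (0.59 ± 0.08), Srebf1 (0.46 ± 0.08) and Scd2 (0.44 ± 0.09) were higher in high gels. Insig1 had all high libraries above all middle ones, and Hmgcs1 and Mvd had them all below, against 5.08% of all genes in either direction. The F test over the 3 gels with the block called 5 members (Scd1, Srebf1, Insig1, Cyp51 and Srebf2), where 9% of genes were called, and without the block it called no gene, with 551 at an unadjusted p under 0.05.

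The high against low difference was larger in replicate 1 for some members and smaller for others. The test of the difference between replicate 1 and the others called 3 of the 30 members, where 8.36% of genes were called. It has 3 residual degrees of freedom, all from replicates 2 and 3, since replicate 1 has 1 library per gel. Within replicates 1, 2 and 3 the log2 difference of high over low was 0.31, 0.95 and 0.85 for Insig1, 1.06, 0.20 and 0.23 for Fdps, and 1.55, 0.55 and 0.74 for Scd2. All 3 genes were higher in high gels within every replicate number, and they differed in how much.

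Over the 16 sterol genes the median within-replicate difference of high over low was 0.40 in replicate 1, 0.11 in replicate 2 and 0.10 in replicate 3. Over the 10 fatty acid genes it was 0.21, 0.22 and 0.12, and over the 4 regulators 0.33, 0.59 and 0.54. Of the 30 members, 17 (56.7%) were higher in the high gel within all 3 replicate numbers, against 23.7% of all tested genes, and 2 (6.67%) were lower in all 3, against 24.8% of all genes.

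The largest differences among the 30 genes were between replicate numbers and lay in the fatty acid branch. In a fit with gel and replicate number as factors, replicate 1 against replicates 2 and 3 called 65.4% of all genes, 32.9% higher and 32.5% lower in replicate 1. All 10 fatty acid genes were lower in replicate 1, with a median log2 difference of -1.13, while of the 16 sterol genes 4 were lower and 1 was higher, with a median of -0.08. The median over all tested genes was 0.0054. Replicate 3 against replicate 2 called no gene in this fit, with 150 at an unadjusted p under 0.05, and no member. Without low replicate 1, 6 members rather than 2 were called higher in replicate 1, and the number called lower was again 16.

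Scd1 showed the largest fall, to 5.88, 3.18 and 4.69 CPM in replicate 1 of the low, middle and high gels, against 37.0 to 72.7 CPM in the 6 libraries of replicates 2 and 3. Its log2 difference was -3.64 ± 0.13 (adjusted p 7.7e-09), 12.5-fold lower in replicate 1. Scd2, Elovl6 and Fads2 followed. Scd2 had 17.9 to 56.0 CPM in replicate 1, against 182 to 305 CPM in the others, a difference of -2.59 ± 0.29 (adjusted p 0.00049). Elovl6, which elongates palmitate, had 0.924 to 2.22 CPM in replicate 1, against 6.67 to 8.06 CPM in the others (-2.27 ± 0.24). Fads2 was 3.29-fold lower in replicate 1 (-1.72 ± 0.16). For 9 of the 10 fatty acid genes, all but Acly, the libraries of replicate 1 all lay below those of replicates 2 and 3, against 26.5% of all genes.

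The sterol genes lower in replicate 1 were Dhcr7 (-1.09 ± 0.13), Pmvk (-0.86 ± 0.13), Nsdhl (-0.80 ± 0.14) and Hsd17b7 (-0.69 ± 0.17). Dhcr7 makes cholesterol from 7-dehydrocholesterol, Pmvk is the phosphomevalonate kinase, and Nsdhl and Hsd17b7 act in removing the methyl groups of lanosterol. Acat2, the cytosolic acetoacetyl-CoA thiolase, was higher (0.37 ± 0.15, adjusted p 0.047), a call that most alternatives ended, and 39.1% of its 50-base stretches are shared with Acat3 in GENCODE vM21. Hmgcs1 (-0.08 ± 0.08), Cyp51 (-0.20 ± 0.09), Sqle (0.20 ± 0.14) and Msmo1 (0.07 ± 0.13) were not called.

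Among the regulators, Srebf2 (-0.51 ± 0.07) and Srebf1 (-0.40 ± 0.09) were lower in replicate 1, Scap was higher (0.70 ± 0.08), and Insig1 was not called (0.15 ± 0.10, adjusted p 0.20). The marker lists differed between the same libraries. Of the 16 neutrophil markers, 15 were called lower in replicate 1 and 0 higher, with a median of -2.27, and of the 15 macrophage markers 7 were higher and 6 lower. Of the 12 cell cycle genes 11 were lower and 1 was higher. The shares of all genes in this comparison were 32.9% higher and 32.5% lower. The part of the cell makeup in the fatty acid differences was not tested.

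**Figure D3:**
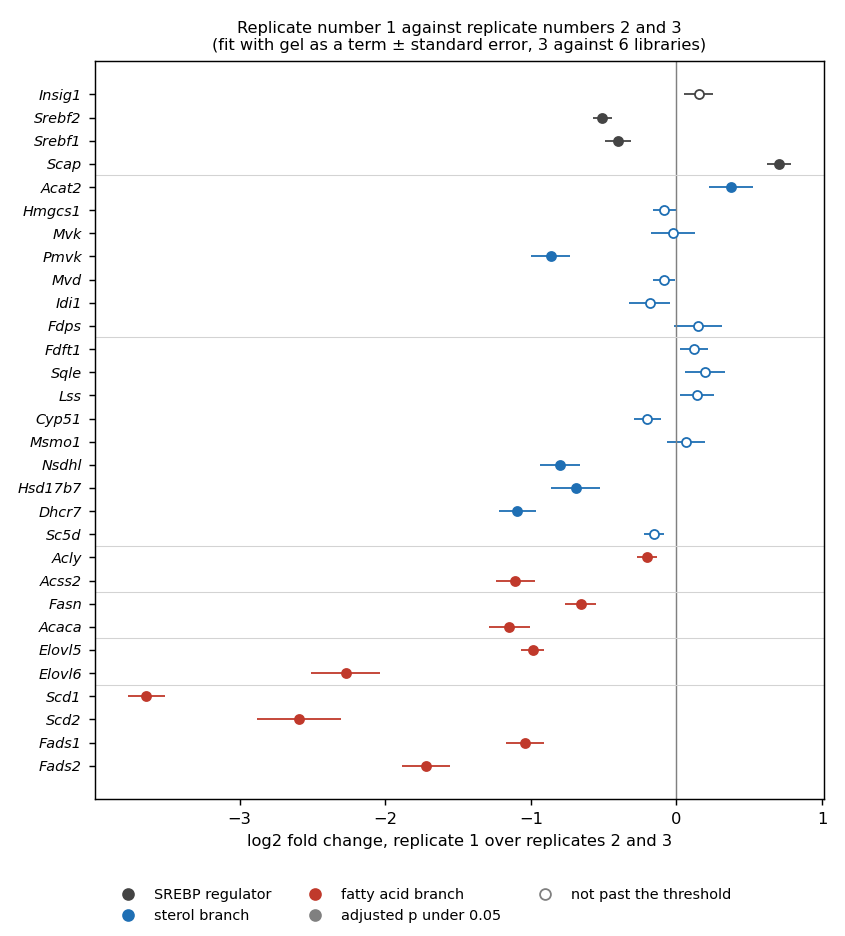
Log2 fold change (horizontal axis) of replicate 1 over replicates 2 and 3 for the 30 genes, from the fit with gel and replicate number as factors, with bars of 1 standard error and filled points at adjusted p under 0.05. All 10 fatty acid genes lie left of 0, down to -3.64 for Scd1, while 11 of the 16 sterol genes are unfilled and near 0.

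Summed over the branch on the TPM scale, the fatty acid genes reached 122, 144 and 141 TPM in replicate 1 of the low, middle and high gels, against 305 to 376 TPM in replicates 2 and 3. The sums of replicate 1 and of the other libraries did not overlap, and the log2 difference over the 3 gels was -1.29 ± 0.15 (SD, n = 3). The sterol genes summed to 391, 539 and 462 TPM in replicate 1, against 479 to 519.99 TPM in the others, which overlapped (-0.10 ± 0.22). In high against low gels the fatty acid sum was higher by 0.24 ± 0.05 and the sterol sum by 0.10 ± 0.13 on the log2 scale (SD over 3 replicate numbers). As a CPM sum the fatty acid difference was 0.32 ± 0.015 and the sterol difference 0.20 ± 0.14. As the mean of log2(CPM + 1) over the genes it was 0.17 ± 0.09 for the fatty acid branch and 0.19 ± 0.14 for the sterol branch, so which branch differed more between high and low gels depends on the measure. The fatty acid sum rests largely on Scd2, Acly and Elovl5.

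**Figure D4:**
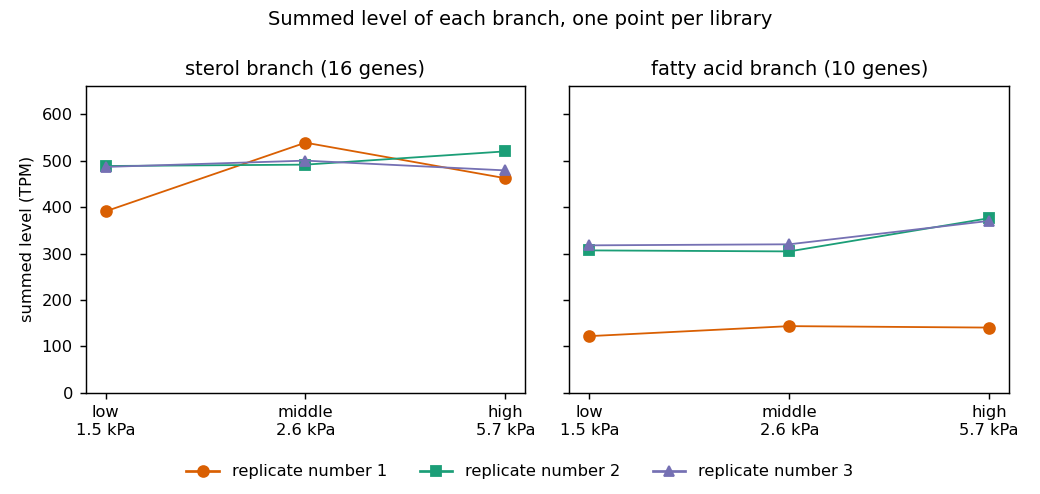
Summed TPM (vertical axes, linear, from 0) of the 16 sterol genes and of the 10 fatty acid genes in each library, against gel stiffness (horizontal axes), with lines joining libraries of the same replicate number. The fatty acid sums of replicate 1 (122 to 144 TPM) lie apart from those of replicates 2 and 3 (305 to 376 TPM), and the sterol sums overlap.

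Other genes of lipid metabolism were read from lists beside the 30. In high against low gels with the block, 6.72% of all genes were called higher and 8.73% lower. Of 17 other genes of sterol synthesis and SREBP processing, 2 were called higher and 0 lower, with a median of 0.13. Of 19 other tested genes of fatty acid synthesis, activation and esterification, 4 were higher and 1 was lower. Acsl5, an acyl-CoA synthetase, had 276, 436 and 445 CPM in high gels, against 171, 159.9 and 148 CPM in low gels. The groups did not overlap and the difference was 1.25 ± 0.16 (adjusted p 0.0012). Acsl4 (0.40 ± 0.09) and Hacd2 (0.33 ± 0.08) were also higher in high gels, and Lpin1, a phosphatidate phosphatase, was lower (-0.99 ± 0.23).

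Of 21 tested genes of sterol uptake, storage and LXR response, 4 were higher and 7 lower in high against low gels. The shares of all genes were 6.72% and 8.73%. Abca1, the cholesterol exporter, was higher (0.56 ± 0.10), and so was the sterol carrier Stard4, an SREBP target (0.71 ± 0.13). The lipoprotein receptor gene Lrp8 was lower (-0.73 ± 0.08), with 76.5, 84.3 and 71.5 CPM in high gels, against 119, 132 and 133 CPM in low gels. Nceh1, a cholesterol ester hydrolase, was lower too (-0.88 ± 0.15). In replicate 1 against replicates 2 and 3, 7 of these 21 genes were higher and 10 lower, against 32.9% and 32.5% of all genes. The lipid droplet coat gene Plin2 was higher by 2.02 ± 0.09, with 974 to 1189.7 CPM in replicate 1 and 232 to 306 CPM in replicates 2 and 3, and Abca1 was lower (-2.05 ± 0.10).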

How the data were processed

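RNA of 9 libraries, 3 each from low, middle and high gels, was sequenced as poly(A) libraries with a stranded kit, per the labels' protocols. The submitters' processing notes name GRCm39, HTSeq 0.6.1, HISAT2 2.0.1, cutadapt 1.9.1 and an unversioned DESeq2, while the annotation and the strand setting of the counting are not stated there. The deposited files held raw counts per gene, which were analysed. They also held FPKM made by the authors, which equalled values recomputed from the counts and gene sizes within 0.005 FPKM and was not used further, and the deposited exonic gene size in bases, which served for TPM. Counts and fits cover counting and library error only, and depth is given with the data.

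Counts were filtered by edgeR's filterByExpr, normalised by TMM and fitted with the robust quasi-likelihood model of edgeR 4.0.16 in R 4.3.3 (DESeq2 1.42.0 as an alternative), two-sided, with Benjamini-Hochberg adjustment over all 12094 tested genes and a threshold of 0.05. Standard errors were obtained by dividing each absolute log2 fold change by the root of its F statistic. The script was tested on simulated data. The sources state no block, so the first fit has group alone. Libraries with the same replicate number deviated together from their group means (correlations of 0.595 to 0.856 over 9 pairs), and the fit with the number as a block is therefore given beside it. Replicate 1 set against the others makes up most of this, since pairs of replicates 2 and 3 from different gels had 0.552 to 0.698. No pair of libraries of a group agreed within sampling noise.

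The 30 genes, the other lists and the tests were chosen with earlier results of these data known. Named with all values were members called between gels in either fit and the 4 regulators; for the replicate numbers the 4 largest rises and falls per branch; and up to 4 called genes of each other list, by adjusted p. A few further members are named after their values were seen. Some genes that this rule picks from the other lists are not reported here. Sequences come from RefSeq on GRCm38.p6, another build than the files', and no coordinates of the files' genes are given. Alternatives were other normalisation, filters, DESeq2, single pairs of groups, replicates 2 and 3 alone, and leaving out each library.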

Additional observations from a re-analysis of the deposited data

Results flagged for a closer look

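For 3 members the high against low difference itself differed between replicate 1 and replicates 2 and 3 (edgeR quasi-likelihood interaction test, adjusted over all tested genes), a share near that of all tested genes, of which 8.36% were called. Fdps, the farnesyl diphosphate synthase, had a log2 difference larger by 0.85 ± 0.21 (SE) in replicate 1 than in replicates 2 and 3 (adjusted p 0.026). Scd2, the stearoyl-CoA desaturase, had one larger by 0.91 ± 0.19 (adjusted p 0.012). Insig1, which retains the SREBP precursors, had one smaller in replicate 1, by -0.60 ± 0.14 (adjusted p 0.024), a call that DESeq2 did not give (-0.58, adjusted p 0.056). The spread in this test comes from replicates 2 and 3 alone, with 1 library of replicate 1 per gel, and whether replicate 1 differs in cells, handling or sequencing was not tested.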

How the results depend on the processing

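Which members are called between gels depends on the replicate block. Replicate 1 stood apart from the others in every gel. The block moved the counts of called members from none to 6 in high against low, 1 in middle against low and 5 in the F test. It called 1869 genes in high against low, 222 in middle against low, 2 in high against middle and 1089 in the F test.

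In high against low the genes called (members in brackets) were 11 (0) without the block, 333 (2) with DESeq2, 1901 (5) with DESeq2 and the block, 3207 (10) in replicates 2 and 3 alone, and 0 (0) and 886 (5) with the 2 groups alone, without and with the block. With the block they were 1905 (7) with DESeq2's size factors, 1859 (6) with no filter and 1696 (7) above a mean of 5 CPM, the last 3 settings chosen after seeing the data. In middle against low, in the order DESeq2, DESeq2 with the block, replicates 2 and 3, and 2 groups with the block, they were 48 (0), 462 (2), 784 (3) and 255 (1), and in high against middle 2 (0), 108 (2), 840 (4) and 118 (1). With the block and DESeq2's size factors, no filter, or the stricter filter, they were 233 (1), 340 (2) and 186 (1) in middle against low, and 1 (0), 40 (1) and 0 (0) in high against middle. The F test gave 197 (1), 1436 (6) and 2490 (10) with DESeq2, DESeq2 with the block and replicates 2 and 3, and 1090 (5), 1282 (6) and 975 (5) with the same 3 block settings.

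Leaving out 1 library, over fits with and without the block, gave 0 to 2469 genes and 0 to 9 members in high against low, 0 to 661 and 0 to 2 in middle against low, 0 to 301 and 0 to 3 in high against middle, and 0 to 1826 and 0 to 9 in the F test. With the block the members called in high against low were 3 without high replicate 2, 4 without low replicate 3, and 9 without low replicate 1. The interaction called 1556 genes and 6 members with no filter.

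The uncalled differences of Scap changed sign: high against low without low replicate 2 (-0.05) or high replicate 1 (-0.18), with leave-one-out values up to 0.43; high against middle from -0.23 to 0.28 and -0.015 in replicates 2 and 3; middle against low from -0.16 to 0.36. Srebf2 in high against middle ran from -0.045 to 0.25. Replicate 1 against the others called 6594 to 7953 genes and 16 to 22 members over its alternatives. The members called lower were 15 to 18, and those called higher 1 or 2 except 6 without low replicate 1. Of those alternatives Acat2 was called only without low replicate 1 or low replicate 2. The causes of these changes were not tested, and genes near 1 CPM such as Elovl6 in replicate 1 are the least precise.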
